A study of Mus musculus with 12 samples.

Results

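What TNF-α still changed in the absence of RelA was followed in mouse embryonic fibroblasts (MEFs) lacking both Sirt6 and RelA. The data are the 4 arrays of Sirt6-/-RelA-/- cells, 1 taken before TNF-α (0 h) and the others after exposure to 20 ng/mL of TNF-α for 1.5, 6 or 24 h, out of 12 arrays in the series. The other 8 arrays are the same time course in wild-type and Sirt6-/- cells, called RelA-bearing here because both retain *Rela*. Of 16593 genes represented by a probe with a single gene symbol, 5706 had an intensity of at least 100 on any of the 4 Sirt6-/-RelA-/- arrays and were followed through their brightest such probe, and 6096 reached that value on any of the 12 arrays. Genes next to this limit were *Tti1*, left out with a highest intensity of 99.9, and *Orai3*, kept with 100.03. Every cell analysed here came from embryos of 13.5 days and had been passaged 4 times. Each condition is 1 array, and the study's methods list a single biological replicate of the Sirt6-/-RelA-/- genotype. No cells lacking RelA alone were arrayed in the data analysed here, so that the loss of RelA cannot be told apart from its loss together with Sirt6. No culture left without TNF-α was sampled at 1.5, 6 or 24 h either, so that TNF-α and time in culture cannot be told apart.

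TNF-α binds its receptors on the cell surface and activates the IκB kinase complex, which marks the inhibitor IκBα for degradation and frees NF-κB dimers to enter the nucleus. RelA (p65) carries the transactivation domain of the most abundant of these dimers in fibroblasts. The family also holds RelB and c-Rel, which have transactivation domains of their own, and p50 and p52, which do not. TNF receptors signal in parallel through the JNK and p38 kinases to AP-1 factors. Among the genes that NF-κB switches on are its own inhibitors, *Nfkbia* (which encodes IκBα) and *Tnfaip3* (which encodes the ubiquitin-editing enzyme A20), and chemokines such as *Ccl2*, which draws monocytes into tissue. Sirt6 is a histone deacetylase that can be recruited to chromatin at genes that NF-κB controls.

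The deleted genes were checked first. *Rela* had intensities of 172 to 187 on the Sirt6-/-RelA-/- arrays, against 674 to 1303 in wild-type and 1025 to 1446 in Sirt6-/- cells, and the 3 *Sirt6* probes were under 16 on every array of both knockout genotypes. Where the *Rela* probe lies relative to the deleted part of the gene is not known. The 4 Sirt6-/-RelA-/- arrays correlated with one another at a mean r of 0.987 to 0.991 for each array across genes. The wild-type 0 h array stood apart from the 3 other wild-type arrays, with a mean r of 0.968 against 0.983 to 0.989 for the 7 other RelA-bearing arrays, and every wild-type difference below rests on it. The tests between genotypes and the choice of RelA-bearing genes are also given without it, and then rest on Sirt6-/- cells alone. The Y-linked gene *Eif2s3y* had intensities of 768 to 910 on the Sirt6-/-RelA-/- arrays and was under 16 on the 8 others, so that genotype and sex of the embryo cannot be told apart in comparisons between genotypes. Of 12 fibroblast markers on the array, 9 reached 100 in Sirt6-/-RelA-/- cells, among them *Col1a1*, *Vim* and *Thy1*. Of 10 macrophage and blood cell markers, only *Lyz2* did, and none of 7 endothelial markers did. Of the skeletal muscle markers *Acta1* and *Des* reached 100, of the epithelial ones *Krt19*, of the neural ones *Nes* and *Map2*, and of those of cartilage and bone *Col2a1*. The markers *Itgam* of myeloid cells, *Cdh5* of endothelium, *Cdh1* of epithelium and *Myod1* of muscle were under 16 on all 4 arrays.

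The start-site regions of 4 genes that the results turn on are shown because they hold the κB consensus, the sequence to which NF-κB dimers bind. They do not stand for the other genes. Of 15 genes with a region that were at least 2-fold higher at any time in Sirt6-/-RelA-/- cells, 4 held the consensus. No region was available for *Ccl2*, *Ccl5*, *Mmp9*, *Pdgfb* or *Eln*. *Nfkbia* and *Tnfaip3* were higher in Sirt6-/-RelA-/- cells from 1.5 h, *Ccl9* was higher from 6 h, and *Cxcl1* had a smaller response than in RelA-bearing cells. Each sequence runs 5′ to 3′ on the gene's strand from 250 bases before to 50 bases after a start site in RefSeq (build GRCm38.p6), with matches to the κB consensus on either strand in capitals.
Nfkbia, chr12:55492598-55492897, minus strand: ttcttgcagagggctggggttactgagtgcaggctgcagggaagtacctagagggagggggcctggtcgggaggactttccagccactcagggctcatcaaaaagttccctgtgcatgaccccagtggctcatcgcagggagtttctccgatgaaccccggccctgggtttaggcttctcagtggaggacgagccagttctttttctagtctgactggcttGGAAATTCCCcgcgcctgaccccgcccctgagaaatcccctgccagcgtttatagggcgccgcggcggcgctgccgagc
Tnfaip3, chr10:19015361-19015660, minus strand, one of 2 start sites listed: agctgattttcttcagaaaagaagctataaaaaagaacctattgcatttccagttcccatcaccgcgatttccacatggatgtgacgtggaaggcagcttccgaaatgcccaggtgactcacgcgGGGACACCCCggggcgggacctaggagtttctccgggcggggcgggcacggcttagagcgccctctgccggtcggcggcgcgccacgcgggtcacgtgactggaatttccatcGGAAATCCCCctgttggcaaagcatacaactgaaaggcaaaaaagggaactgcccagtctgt
Ccl9, chr11:83578587-83578886, minus strand: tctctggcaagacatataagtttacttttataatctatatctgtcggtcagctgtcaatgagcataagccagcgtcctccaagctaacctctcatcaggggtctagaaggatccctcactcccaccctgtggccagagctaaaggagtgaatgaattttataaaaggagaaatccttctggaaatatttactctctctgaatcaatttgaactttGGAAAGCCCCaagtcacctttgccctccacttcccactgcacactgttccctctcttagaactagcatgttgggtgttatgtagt
Cxcl1, chr5:90890995-90891294, plus strand: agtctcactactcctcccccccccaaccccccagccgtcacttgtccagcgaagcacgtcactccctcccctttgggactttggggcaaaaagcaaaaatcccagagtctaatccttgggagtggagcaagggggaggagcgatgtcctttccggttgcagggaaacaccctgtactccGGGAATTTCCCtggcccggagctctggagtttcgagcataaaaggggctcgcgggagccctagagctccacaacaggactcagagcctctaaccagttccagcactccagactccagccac
The match lay 29 bases before the start site in *Nfkbia* and 35 bases before it in *Ccl9*. *Tnfaip3* had matches 125 and 12 bases before its start, and the 2 overlapping matches of *Cxcl1* began 71 and 70 bases before it. *Tnfaip3* and *Ccl9* each also held 1 match to TGANTCA, the AP-1 element searched on both strands, whereas *Nfkbia* and *Cxcl1* held none. Of all 27025 such regions in the table, 8.18% held the κB consensus and 7.93% the AP-1 element.

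At 1.5 h, the genes that stood highest over 0 h in Sirt6-/-RelA-/- cells were 2 inhibitors of NF-κB. With 1 array per time these single-time differences have no test, and genes are counted from a 2-fold difference. *Nfkbia* had intensities of 199, 438, 407 and 317 at 0, 1.5, 6 and 24 h, and *Tnfaip3* of 53.9, 109.5, 121 and 114. Both were at their lowest on the 0 h array and stayed above it at all 3 later times. These were the 2 of 5706 genes (0.0351%) at least 2-fold higher at 1.5 h, with log2 differences of 1.14 for *Nfkbia* and 1.02 for *Tnfaip3*. For *Nfkbia* the study's own quantitative RT-PCR at 0 and 1.5 h gave a different result. The study reports that the induction of *Nfkbia* by TNF-α was lost in Sirt6-/-RelA-/- cells. It reports the same loss for *Nfkb2*, which had a log2 difference of 0.14 at 1.5 h on the arrays. Why that assay and the single arrays used here differ for *Nfkbia* was not tested. Just under the 2-fold limit on the arrays came *Ccl2* (0.98) and *Pdgfb* (0.96), which encodes the B chain of platelet-derived growth factor. *Nop9* followed with 0.95 and was lower at this time in wild-type (-0.25) and Sirt6-/- cells (-0.15). After it came *Gdnf*, a neurotrophic growth factor (0.80), the kinase gene *Map3k1* (0.79), *Rrad*, a small GTPase (0.78), and *Errfi1*, a feedback inhibitor of the EGF receptor (0.78). At 1.5-fold, 27 genes (0.473%) were higher.

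Another 2 genes (0.0351%) were at least 2-fold lower at 1.5 h. *Ro60*, which encodes an RNA-binding autoantigen, had intensities of 101, 34.2, 68.3 and 111, and *Nipbl*, the cohesin loader, of 228, 107, 226 and 218. Each was lowest on the 1.5 h array and near its starting level at 24 h, *Nipbl* already at 6 h. Next were *Zfp37* (log2 difference -0.98), *Ankrd12* (-0.88), the homeobox gene *Hoxb6* (-0.87) and *Akap9*, a kinase anchoring protein of the Golgi (-0.84). At 1.5-fold, 31 genes (0.543%) were lower. *Ankrd12* and *Akap9* were also nearer to 0 h again at 6 h, with intensities of 168 against 136 at 0 h for *Ankrd12* and of 473 against 537 for *Akap9*.

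At 6 h the higher genes came to outnumber the lower ones. In Sirt6-/-RelA-/- cells 14 of 5706 genes (0.245%) were at least 2-fold higher than at 0 h and 1 (0.0175%) was at least 2-fold lower. At 1.5-fold the counts were 62 (1.09%) and 54 (0.946%), so that the excess of higher genes lay in the larger differences. The median difference of all genes was -0.02 on the log2 scale, and 96.4% of genes lay within 0.5 of 0.

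Secreted proteins were among the 14 genes, a grouping made after their values were seen. *Ccl2* had intensities of 164, 324, 487 and 391 over the 4 times, highest at 6 h, a log2 difference of 1.57 at that time. *Pdgfb* had 127, 248, 327 and 230, also with its peak at 6 h (1.36). *Ccl9*, a chemokine of myeloid cells, had 59.4, 66.5, 143 and 188. It was near its 0 h level at 1.5 h and then climbed over both later arrays (1.27 at 6 h). *Lif*, a cytokine of the interleukin-6 family, had 49.7, 64.2, 101 and 58.8, so that its 6 h value (1.03) stood alone.

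Other genes of this group act on signalling from within or on the cell surface. *Clec2d*, a lectin-like ligand of natural killer cell receptors, had intensities of 168, 230, 396 and 345. *Sema7a*, a membrane-anchored semaphorin, had 157, 247, 368 and 258. *Rgs16*, which shuts off G protein signalling, had 578, 834, 1286 and 947, and *Errfi1* had 1222, 2098, 2694 and 2007. All 4 had their peak at 6 h and remained above 0 h at 24 h. The rest of the 14 were *Tnfaip3* (log2 difference 1.16), *Nfkbia* (1.03), the syntenin gene *Sdcbp2* (1.05), the matrix protease gene *Mmp9* (1.04), *Nop9* (1.16) and *Tcim* (1.02), the last being the member nearest to the limit. *Aco1* lay just outside it at 0.99. The single lower gene was *Gsc*, a homeobox gene of the early embryo, with intensities of 113, 84.8, 47.9 and 68.4 (-1.24).

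**Figure D1:**
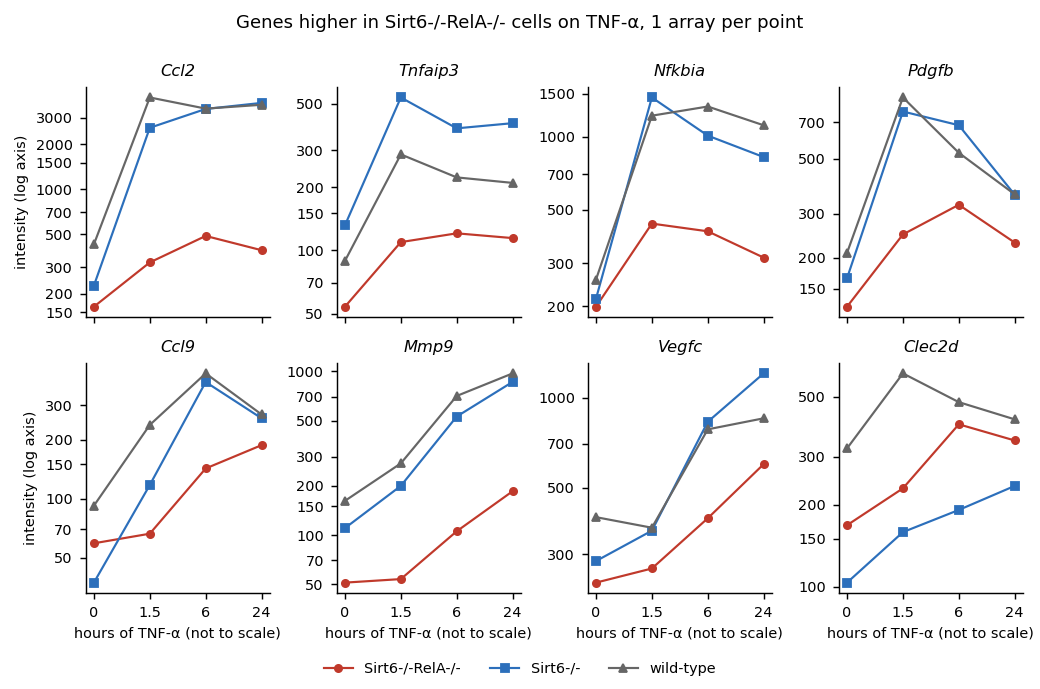
Intensity (log axis) at 0, 1.5, 6 and 24 h of TNF-α, equally spaced, for 8 genes, with 1 array per point. Sirt6-/-RelA-/- cells (circles) go from 164 to 487 for *Ccl2* and from 199 to 438 for *Nfkbia*, below both RelA-bearing genotypes after 0 h, whereas *Vegfc*, *Mmp9* and *Ccl9* climb to their highest point at 24 h.

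At 24 h lower genes outnumbered higher ones. In Sirt6-/-RelA-/- cells 11 genes (0.193%) were at least 2-fold higher than at 0 h and 27 (0.473%) at least 2-fold lower, and at 1.5-fold the counts were 98 (1.72%) and 224 (3.93%). The median of all genes was -0.05 at this time. The excess of lower genes depended on the scaling, since there were 14 higher and 17 lower genes at 2-fold with median centring, and 12 and 21 with quantile normalization. The 24 h array was also set directly against the 6 h array, which leaves out that of 0 h. In this comparison 0 genes (0%) were at least 2-fold higher at 24 h than at 6 h and 8 (0.14%) at least 2-fold lower. These 8 were *Il1rn*, *Eln*, *Cxcl14*, *Ptn*, *Ptx3*, *Gjb2*, *Gramd3* and *Nppb*. The largest of the differences were -1.68 for *Il1rn* and -1.67 for *Eln*.

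Several of the genes higher at 24 h had a higher value at each later time. *Mmp9*, the gelatinase that degrades basement membrane, had intensities of 51.2, 53.8, 105 and 185, the largest log2 difference of any higher gene at this time (1.86). *Ccl9* reached 1.66. *Vegfc*, the growth factor of lymphatic vessels, had 241, 268, 395 and 599 (1.32). For *Mmp9*, *Ccl9* and *Vegfc*, the 1.5 h value was close to that at 0 h and the 24 h value was the highest of the 4. *Abcb1b*, a P-glycoprotein drug transporter, likewise had 148, 181, 242 and 324 (1.13). *Map3k14*, which encodes the NF-κB-inducing kinase of the noncanonical pathway, had 62.4, 106, 109 and 125 (1.01) and was the member nearest to the limit. Also counted were *Ccl2*, *Tnfaip3*, *Clec2d*, *4930402H24Rik*, *Tmem131*, which had 73.7, 75.9, 84.6 and 157, and the U6 small nuclear RNA gene *Rnu6*, which had 2095, 1847, 3809 and 4618.

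Among the 27 lower genes were some that build the connective tissue matrix, a grouping made after their values were seen. *Eln*, which encodes the elastic fibre protein elastin, had intensities of 484, 436, 355 and 112, a log2 difference of -2.12 at 24 h and the largest in either direction. *Ogn*, a small proteoglycan of the collagen matrix, had 717, 537, 552 and 289 (-1.31). *Itga11*, a collagen-binding integrin, had 2929, 2967, 2267 and 1259 (-1.22), and *Ptn*, the heparin-binding growth factor pleiotrophin, had 1849, 1783, 1783 and 780 (-1.24). In each of the 4 genes the 24 h array was the lowest and the 1.5 h array was near that at 0 h, except for *Ogn*, which was already at 537 at 1.5 h.

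Genes with roles in development were among the 27 as well, again a grouping made after their values were seen. *Bmp4*, a bone morphogenetic protein, had intensities of 1509, 1321, 956 and 711, lower at each later time. The others of this kind were the tendon factor *Scx*, the homeobox gene *Msx1*, the forkhead gene *Foxd1*, the Wnt receptor gene *Fzd1* and *Tmem119*, a promoter of osteoblast differentiation. *Fzd1* had 452, 378, 281 and 165 and *Tmem119* 361, 342, 208 and 148, both stepwise. Matrix and growth factor binding genes in the list were *Col5a2*, *P4ha1*, *Ccn5* and *Igfbp2*, and the chemokine *Cxcl14* had 439, 365, 303 and 129. *Itgbl1* (-1.01) was the member nearest to the limit and *Rgs4* (-0.998) lay just outside it. The summed intensity of the 12 fibroblast markers was 29310 at 0 h, 27130 at 1.5 h, 25790 at 6 h and 23950 at 24 h, and that of the 10 macrophage and blood cell markers was 362, 496, 531 and 575. The sum was 8543, 6724, 7534 and 7729 for the skeletal muscle markers and 1040, 1072, 1462 and 1614 for the neural ones. It was 108.5 to 141 for endothelial, 165 to 218 for epithelial and 633 to 823 for cartilage and bone markers. The part of any of these cell types in these results was not tested. In such bulk samples, fewer cells of a type and less RNA per cell cannot be told apart.

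**Figure D2:**
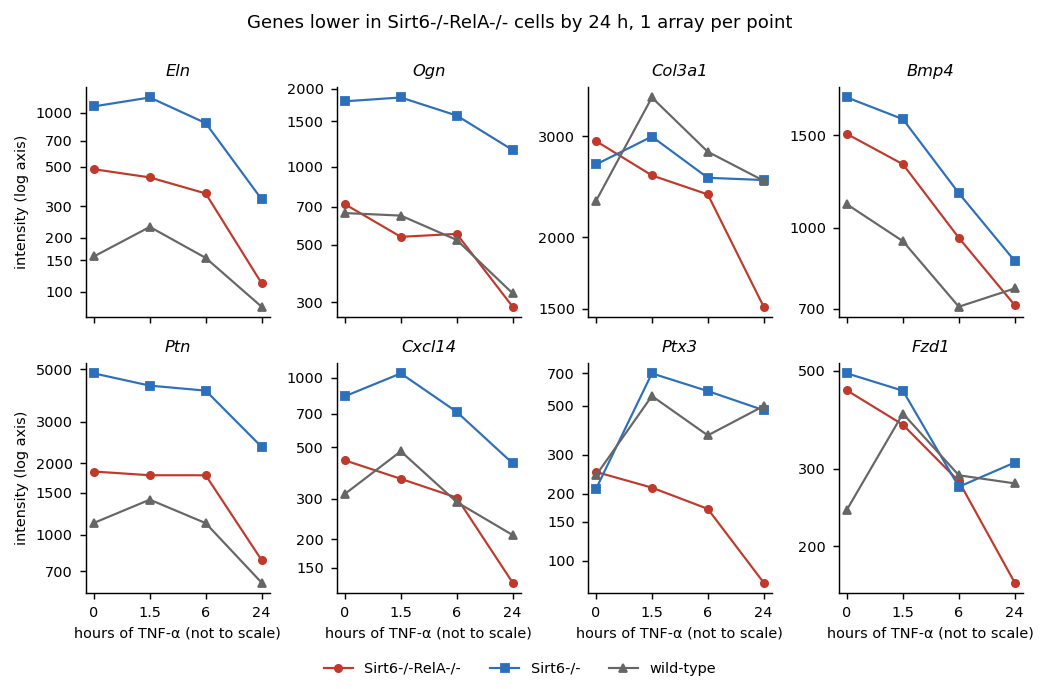
Intensity (log axis) at 0, 1.5, 6 and 24 h of TNF-α, equally spaced, for 8 genes lower at 24 h in Sirt6-/-RelA-/- cells (circles), with 1 array per point. *Eln* goes from 484 to 112 and *Bmp4* from 1509 to 711 in these cells, and both go down in Sirt6-/- cells (squares) too, whereas *Ptx3* goes from 251 to 79.5 in Sirt6-/-RelA-/- cells alone.

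Probes of the same gene that were not used for the counts gave a check on the probes alone, since they lie on the same single arrays. For the genes at least 1.5-fold lower at 24 h, 34 such probes reached 100 on a Sirt6-/-RelA-/- array, and 30 of them were lower, 16 by at least 1.5-fold. For the higher genes at 24 h, 14 of 17 other probes were higher, 5 by at least 1.5-fold. At 6 h, 9 of 10 were higher for the higher genes, 2 by at least 1.5-fold, and 2 of 3 were lower for the lower genes, 0 by that much. At 1.5 h, 2 of 2 were higher, 0 by at least 1.5-fold, and 3 of 4 were lower, 1 by at least 1.5-fold. Of all 5706 genes 48.2%, 45.2% and 41.7% were higher at 1.5, 6 and 24 h, and 51.8%, 54.8% and 58.3% lower. By at least 1.5-fold, 0.473%, 1.09% and 1.72% were higher and 0.543%, 0.946% and 3.93% lower.

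A test was possible for the late response, in which the 6 and 24 h arrays of a genotype were taken as 2 values of a late phase. All 12 arrays entered the fit (limma), but only the 6 late arrays gave the spread, since each 0 and 1.5 h array had its own term. The p-values set the late change against the spread between 6 and 24 h, not against variation between cultures or at 0 h. They were adjusted over 5706 genes by the Benjamini-Hochberg method. *Ccl2* rose by 1.41 (log2, with an error of 0.17), and limma gave it an adjusted p of 0.0425. *Tnfaip3* rose by 1.12 (error 0.14) with the same adjusted p of 0.0425, and both genes were higher on both late arrays. These 2 genes (0.0351%) passed, and 0 genes (0%) were lower. At an unadjusted p under 0.05 there were 222 higher and 347 lower genes. *Clec2d* came next, at 1.14 (standard error 0.18, adjusted p = 0.167). *Ccl9* (1.47), *Mmp9* (1.45), *Pdgfb* (1.11) and *Vegfc* (1.01) had differences of the same size, with adjusted p of 0.24, 0.312, 0.396 and 0.312. *Eln* (-1.28) had a standard error of 0.67, because its 6 and 24 h values lay far apart. Neither call held when any 1 of the 6 late arrays of the 3 genotypes was left out (adjusted p of 0.0511 to 0.26), nor with the 0 and 1.5 h arrays together as the reference, when *Ccl2* was at 0.92 and *Tnfaip3* at 0.61 (adjusted p of 0.807 and 0.785). With a further term for the difference between 24 and 6 h that the 3 genotypes share, which matches the late arrays by time, 17 genes were higher and 16 lower, *Ccl2* and *Tnfaip3* among them (adjusted p of 0.00234 and 0.00706 from limma).

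The genes 2-fold higher in Sirt6-/-RelA-/- cells were next looked up on the 8 RelA-bearing arrays, which had no part in their choice. Of the 14 genes of 6 h, all 14 were higher at 6 h in Sirt6-/- cells and 13 in wild-type cells, against 57.3% and 54.3% of all 5706 genes. At least 2-fold were 11 of them in Sirt6-/- and 9 in wild-type cells, against 0.666% and 1.45% of all genes. The exception in wild-type cells was *Nop9*, with -0.21 there and 0.09 in Sirt6-/- cells. Of the 11 genes of 24 h, 10 were higher in Sirt6-/- cells and 8 in wild-type cells, against 57.4% and 55.5% of all genes, and *Tmem131* was lower in both.

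The size of the response in the RelA-bearing genotypes was often larger, but not for each gene. At 6 h *Ccl2* differed from 0 h by 1.57 in Sirt6-/-RelA-/- cells, 3.93 in Sirt6-/- and 3.02 in wild-type cells. *Pdgfb* differed by 1.36, 2.04 and 1.33 in the same order, and *Errfi1* by 1.14, 0.97 and 0.55. *Clec2d* differed by 1.23, 0.89 and 0.57. Of the 14 genes, 11 had a larger difference in Sirt6-/- cells than in Sirt6-/-RelA-/- cells, and 8 in wild-type cells.

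The 27 genes lower at 24 h were lower in 22 cases in Sirt6-/- cells and in 17 cases in wild-type cells, against 42.4% and 44.5% of all genes. Their median log2 difference was -0.67 in Sirt6-/- and -0.18 in wild-type cells, and 6 and 2 of them were at least 2-fold lower there. *Eln* was at -2.12 in Sirt6-/-RelA-/-, -1.72 in Sirt6-/- and -0.93 in wild-type cells, and *Bmp4* at -1.09, -1.04 and -0.53. Against these stood *Ptx3*, which encodes a pentraxin of innate immunity. It had intensities of 251, 213, 171 and 79.5 in Sirt6-/-RelA-/- cells, 210, 700, 583 and 478 in Sirt6-/- cells, and 242, 553, 367 and 499 in wild-type cells. The 3 genotypes began within a narrow range, and then the Sirt6-/-RelA-/- arrays lay below all 6 later RelA-bearing arrays. The difference of its late response from that in RelA-bearing cells was -2.18 (standard error 0.47, adjusted p = 0.134 from limma), which did not pass. *Col5a2* was at -1.03 at 24 h in Sirt6-/-RelA-/-, 0.14 in Sirt6-/- and 0.17 in wild-type cells. *Fzd1* was lower in both knockout genotypes, at -1.45 in Sirt6-/-RelA-/- and -0.67 in Sirt6-/- cells, and at 0.20 in wild-type cells.

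Across the 5706 genes, differences from 0 h in Sirt6-/-RelA-/- cells correlated with those in Sirt6-/- cells at r = 0.15 at 1.5 h, 0.427 at 6 h and 0.346 at 24 h. With wild-type cells r was 0.001, -0.071 and -0.09. Genes are not independent replicates, and within a genotype all 3 times share the 0 h array, which for wild-type is the array that stood apart.

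The comparison was then turned round, to ask what became of the TNF-α genes of RelA-bearing cells. At least 2-fold higher in both wild-type and Sirt6-/- cells were 38 of 6096 genes at 1.5 h (0.623%), 44 at 6 h (0.722%) and 38 at 24 h (0.623%). At least 2-fold lower in both were 0 (0%), 1 (0.0164%) and 6 (0.0984%). These counts use the wild-type 0 h array. The higher genes numbered 58 over all times, of which 22 belonged to all 3 and 35 reached 100 on a Sirt6-/-RelA-/- array. Since the genes were chosen for high values in the RelA-bearing cells, a smaller value in Sirt6-/-RelA-/- cells is given as a description, with no test.

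In Sirt6-/-RelA-/- cells the median log2 difference of these genes was 0.38 at 1.5 h, 0.57 at 6 h and 0.49 at 24 h. The medians were 1.47, 1.55 and 1.55 in wild-type and 1.66, 1.84 and 1.82 in Sirt6-/- cells, and that of all genes in Sirt6-/-RelA-/- cells was -0.01, -0.02 and -0.05. Higher in Sirt6-/-RelA-/- cells were 31 of 38, 36 of 44 and 29 of 38, against 48.2%, 45.7% and 41.9% of all genes. At least 2-fold higher were 4, 11 and 7, against 0.0656%, 0.312% and 0.262%. Without the wild-type arrays, 50, 63 and 67 genes were at least 2-fold higher in Sirt6-/- cells, and their medians in Sirt6-/-RelA-/- cells were 0.25, 0.53 and 0.29. For genes chosen in wild-type cells alone the medians were 0.07, 0.03 and -0.04.

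**Figure D3:**
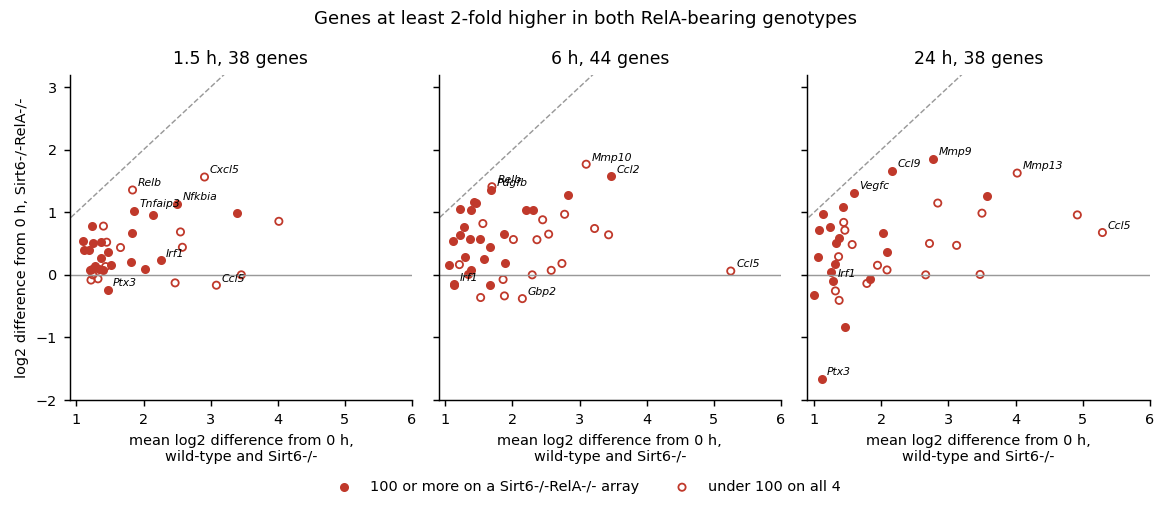
Log2 difference from 0 h in Sirt6-/-RelA-/- cells against the mean of wild-type and Sirt6-/- cells, at 1.5, 6 and 24 h of TNF-α, for the 38, 44 and 38 genes at least 2-fold higher in both RelA-bearing genotypes. The dashed line marks equal differences and the solid line 0; most points lie between them, *Ccl5* and *Irf1* lie near 0 at 6 h, and open circles are genes under 100 on all 4 Sirt6-/-RelA-/- arrays.

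The members fell along a range from a log2 difference near that of RelA-bearing cells to none. Near the upper end was *Relb*, which encodes an NF-κB subunit and had intensities of 24.8, 63.4, 65.8 and 44.3 in Sirt6-/-RelA-/- cells, all under 100. Its log2 difference at 6 h was 1.41, against 1.90 in Sirt6-/- and 1.49 in wild-type cells. *Tnfaip3* was at 1.16, 1.54 and 1.32 in the same order, *Rgs16* at 1.16, 1.57 and 1.35, and *Sdcbp2* at 1.05, 1.32 and 1.11. These differences are from each genotype's own 0 h, which for *Relb*, *Tnfaip3* and *Rgs16* was lowest in Sirt6-/-RelA-/- cells. At 0 h *Relb* was at 38.2 in Sirt6-/- and 64.5 in wild-type cells. *Tnfaip3* was at 53.9, 132 and 89.1 at 0 h in the order above, and reached at most 121 in Sirt6-/-RelA-/- cells. *Sdcbp2* began at 131, between 90.8 in Sirt6-/- and 174 in wild-type cells. For the late response, the difference of *Tnfaip3* between Sirt6-/-RelA-/- and RelA-bearing cells was -0.30 (95% interval -0.70 to 0.09, adjusted p = 0.418 from limma). For *Pdgfb* it was -0.21 (-1.25 to 0.83) and for *Rgs16* -0.33 (-1.04 to 0.37). These intervals do not show equal responses. *Nfkbia*, the other inhibitor, lay lower, at 1.03, 2.23 and 2.37 at 6 h (late difference -1.31, interval -1.89 to -0.74, adjusted p = 0.123).

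In the middle of the range were chemokines and proteases that kept a part of their response. *Ccl2* and *Ccl9* have been given above, and *Ccl7*, a further monocyte attractant, had intensities of 1492, 2371, 2333 and 1927 in Sirt6-/-RelA-/- cells. Its log2 difference at 6 h was 0.64, against 2.25 in Sirt6-/- and 1.48 in wild-type cells. *Cxcl1*, a neutrophil attractant, had 45.2, 81.8, 75.5 and 62.7, against 35.2, 940, 416 and 400 in Sirt6-/- cells. It was dim on all 4 Sirt6-/-RelA-/- arrays, and the 3 TNF-α arrays lay above that of 0 h. Stromelysin 1 (*Mmp3*), which cleaves many matrix proteins, reached at most 52.9 in Sirt6-/-RelA-/- cells, with log2 differences of 0.64 at 6 h and 0.96 at 24 h against 4.23 and 5.93 in Sirt6-/- cells.

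At the lower end were genes with little or no difference from 0 h. *Irf1*, a transcription factor of the interferon system, had intensities of 524, 617, 469 and 489 in Sirt6-/-RelA-/- cells and of 355, 2443, 804 and 947 in Sirt6-/- cells. *Csf1*, the macrophage growth factor, had 665, 770, 670 and 685, against 483, 1759, 1271 and 1108. Both genes were bright in Sirt6-/-RelA-/- cells, and their TNF-α arrays lay close to that of 0 h. *Ccl5*, an attractant of T cells and monocytes, had 20.8, 18.6, 21.7 and 33.3, near the lower limit of 16, and reached 869 in wild-type cells. The glucose transporter gene *Slc2a6* had 248, 226, 222 and 236, against 151, 294, 485 and 555 in Sirt6-/- cells. *Gbp2*, an interferon-inducible GTPase, was at -0.38 at 6 h, against 2.37 in Sirt6-/- and 1.93 in wild-type cells.

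The difference between the responses was tested across all 6096 genes. Genes under 100 on the Sirt6-/-RelA-/- arrays entered this test only through the arrays where they are high, so that the filter favours a smaller response in Sirt6-/-RelA-/- cells and the counts are not support for one. For the late response, 7 genes (0.115%) were lower in Sirt6-/-RelA-/- than in RelA-bearing cells and 0 (0%) were higher (limma, 279 higher and 696 lower at an unadjusted p under 0.05). *Ccl5* differed by -4.91 (standard error 0.28, adjusted p = 0.000239), *Cxcl1* by -2.57 (0.20, 0.00167) and *Ccl2* by -2.11 (0.21, 0.00563). The others were *Gsdmd*, the pore-forming gasdermin D, at -1.83, *Slc2a6* at -1.86, *Prnd*, a prion-like gene, at -2.05 and *Sash1*, a scaffold protein, at -1.72. All 4 *Gsdmd* intensities in Sirt6-/-RelA-/- cells were between 65.5 and 86.9 and those of *Prnd* between 8.42 and 25.1. *Ccl5*, *Cxcl1*, *Gsdmd*, *Prnd* and *Sash1* were under 100 on all 4 Sirt6-/-RelA-/- arrays. Among the 5706 genes chosen on those arrays, *Ccl2* and *Slc2a6* passed. The value of *Prnd* depends on the floor, with -2.63 for a floor of 32, as does that of *Ccl5*, with -4.56. That of *Gsdmd* depends on the probe, with -1.08 for the mean of its probes (adjusted p = 0.194 from limma). *Sash1* was lower in Sirt6-/-RelA-/- cells on TNF-α, with 97.6, 40.5, 54.8 and 46.1, and higher in both other genotypes. Of the 7, *Ccl5* and *Cxcl1* also passed in the 6096 genes when any 1 of the late arrays or the wild-type 0 h array was left out. The count was 2 without the wild-type 24 h array and 8 without the wild-type 0 h array. Against Sirt6-/- cells alone 8 genes passed, all lower, and against wild-type cells alone 47 higher and 154 lower. The fit without the wild-type 0 h array is the comparison with Sirt6-/- cells alone, so these are 1 result. With the shared difference between 24 and 6 h as a term, 5 higher and 46 lower genes passed.

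At 1.5 h, 5 genes (0.082%) had a smaller difference from 0 h in Sirt6-/-RelA-/- than in RelA-bearing cells and 0 (0%) a larger one (limma, 175 higher and 434 lower at an unadjusted p under 0.05). They were *Cxcl1* (-3.16, standard error 0.23, adjusted p = 0.00194), *Ccl5* (-3.25), *Ccl2* (-2.40), *Irf1* (-2.02) and *Csf1* (-1.60), with adjusted p of 0.00913, 0.00913, 0.0123 and 0.0444 for the last 4. Without the wild-type 6 h or the wild-type 24 h array, which give part of the spread, *Cxcl1* alone passed, and without the wild-type 0 h array 4 genes did. Each condition in this comparison is 1 array, so that its p-values rest on the spread between 6 and 24 h and do not measure variation at 0 or 1.5 h. In the fit without the wild-type 0 h array, the comparison was with Sirt6-/- cells alone. *Cxcl1* and *Ccl5* were under 100 on the Sirt6-/-RelA-/- arrays, and among the 5706 genes chosen there *Ccl2*, *Irf1* and *Csf1* passed.

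The genes of the NF-κB pathway were described from lists by role. Of the family, *Nfkb2* and *Rela* reached 100 in Sirt6-/-RelA-/- cells. *Nfkb2*, which encodes p100 and p52, had intensities of 139, 153, 190 and 157, highest at 6 h (0.45). In Sirt6-/- cells it was at 1.78 and in wild-type cells at 1.54 at that time. *Rel* was under 16 on all 4 arrays, and *Bcl3* was at 18.1 to 26.2. Of 11 measured feedback genes, 2 (*Nfkbia* and *Tnfaip3*) were at least 2-fold higher at 1.5 h and at 6 h, against 0.0351% and 0.245% of all genes. The median of the 11 was 0.14, 0.23 and 0.24 at 1.5, 6 and 24 h. *Birc2*, an inhibitor of apoptosis, had 135, 135, 171 and 202. *Socs3*, which inhibits JAK kinases, had 353, 296, 208 and 202, lower at all 3 times, and *Ier3*, an immediate early gene of cell survival, had 2119, 2841, 2654 and 2508. *Nfkbie*, which encodes IκBε, was under 50 at all times, with log2 differences of -0.13, 0.56 and -0.14 against 2.82, 2.61 and 2.14 in Sirt6-/- cells. One of the 11, *Tnfaip3*, passed the late test.

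Of 13 measured growth factor and receptor genes, 5 were at least 1.5-fold higher at 6 h and none lower, and the median was 0.22, against 1.09% higher, 0.946% lower and a median of -0.02 over all genes. Beside *Pdgfb* and *Vegfc* these were *Fgf7*, a keratinocyte growth factor, with intensities of 624, 805, 1119 and 909, *Hbegf*, a ligand of the EGF receptor, with 965, 1481, 1476 and 1041, and *Vegfa* with 1017, 1545, 1545 and 864. *Hbegf* and *Vegfa* were high on the 1.5 and 6 h arrays and back near 0 h at 24 h, whereas *Fgf7* was still above it. *Hbegf* was at 0.61 at 6 h in Sirt6-/-RelA-/-, 0.44 in Sirt6-/- and -0.20 in wild-type cells. Of 20 immediate early genes none was 1.5-fold higher at any time and 1, *Mafk*, was 1.5-fold lower at 24 h (-0.84). *Jun*, a subunit of AP-1, had 311, 396, 440 and 418, and *Fosl1*, another, had 124, 168, 159 and 176, each above 0 h at all 3 times. *Fos*, a further subunit, had 129, 125, 135 and 88.0. At 24 h, 15 of the 20 genes were lower, against 58.3% of all genes. The median of the 20 was 0.09, 0.11 and -0.26. Of 12 measured TNF receptor and death signalling genes, *Mlkl*, the effector of necroptosis, had 77.4, 119, 110 and 132. The late test was passed by none of the measured genes of these 3 lists, nor by any of 11 interferon response genes, whose median was -0.08, 0.03 and -0.10.

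**Figure D4:**
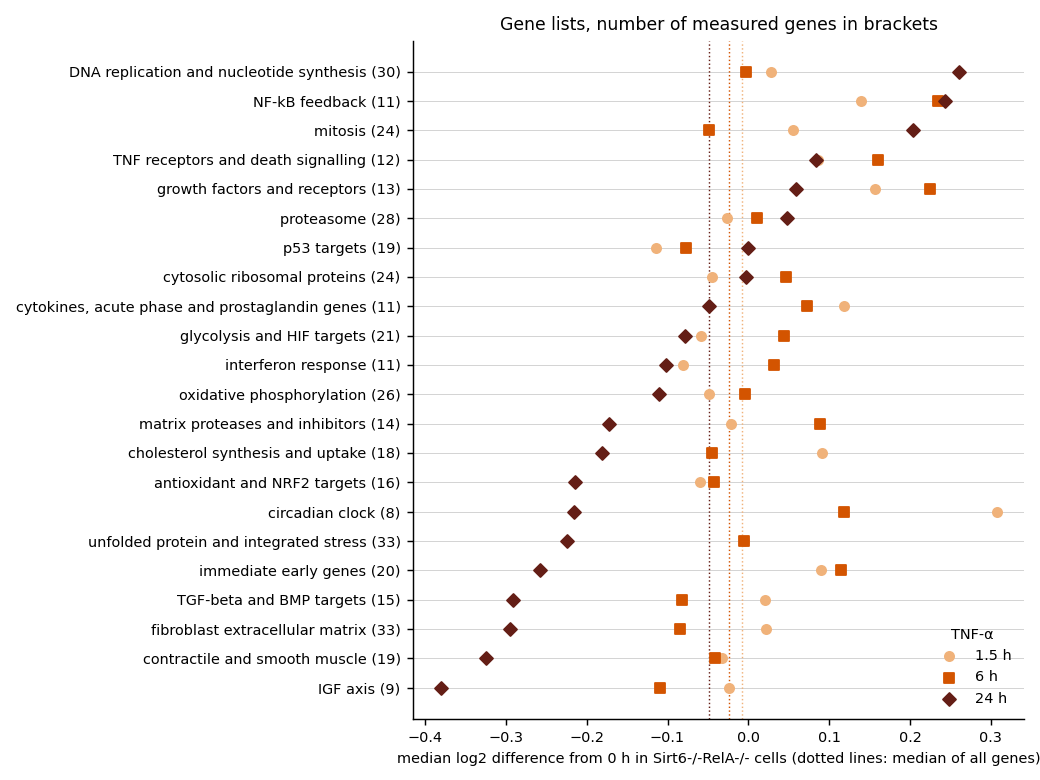
Median log2 difference from 0 h in Sirt6-/-RelA-/- cells at 1.5, 6 and 24 h of TNF-α for gene lists with at least 8 measured genes (number in brackets), with dotted lines at the medians of all 5706 genes. At 24 h, DNA replication (0.26) and mitosis (0.20) lie to the right, and the IGF axis (-0.38), contractile genes (-0.33) and extracellular matrix (-0.29) to the left.

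At 24 h whole groups of genes lay to one side in Sirt6-/-RelA-/- cells, though by small amounts. Of 33 measured extracellular matrix genes 27 were lower, 10 of them by at least 1.5-fold, with a median of -0.29, against 58.3% lower and a median of -0.05 over all genes. Beside *Eln* and *Ogn* these included the fibrillar collagen *Col3a1*, with intensities of 2941, 2562, 2374 and 1514, and *Mgp*, the matrix inhibitor of calcification, with 3135, 2662, 2956 and 1689. The median of the same list was -0.11 in Sirt6-/- and -0.29 in wild-type cells. Of 19 contractile genes 18 were lower (median -0.33), with *Mylk*, the myosin light chain kinase, going from 279 at 0 h to 157 at 24 h. Of 15 TGF-β and BMP target genes 14 were lower (-0.29). *Id1*, a direct BMP target, had 759, 744, 510 and 465, and the exception was *Grem1*, a secreted BMP antagonist, with 351, 430, 591 and 544. Of 9 IGF axis genes 7 were lower (-0.38). In Sirt6-/- cells the medians of these 3 lists were -0.26, -0.28 and -0.43, and in wild-type cells -0.10, -0.18 and -0.19.

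Genes of DNA replication and mitosis lay on the other side. Of 30 measured replication genes 26 were higher at 24 h, 3 of them by at least 1.5-fold, with a median of 0.26, against 41.7% higher over all genes. *Tk1*, the thymidine kinase of S phase, had intensities of 410, 373, 443 and 657, and *Fen1*, a flap endonuclease, 540, 486, 606 and 812. An exception was *Pcna*, the sliding clamp of DNA polymerases, with 713, 652, 469 and 480. Of 24 mitosis genes 22 were higher (median 0.20), with *Top2a*, a topoisomerase, at 427, 453, 603 and 637. At 24 h the medians of the replication and mitosis lists were 0.29 and 0.17 in Sirt6-/- and 0.19 and 0.24 in wild-type cells. At 6 h the medians of these lists in Sirt6-/-RelA-/- cells were -0.003 and -0.05. Genes of the unfolded protein and integrated stress response were lower in 26 of 33 cases at 24 h (median -0.22). Antioxidant genes were lower in 14 of 16 (-0.21), and of all genes 58.3% were. The medians of these 2 lists were -0.07 and 0.06 in Sirt6-/- cells and -0.15 and 0.24 in wild-type cells. None of the genes in these lists of matrix, contractile, growth factor signalling, cell cycle and stress genes passed the late test in either direction.

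The start-site regions were searched for the genes above. Of 20 genes at least 2-fold higher at any time in Sirt6-/-RelA-/- cells, 15 had a region in the RefSeq table, of which 4 held the κB consensus (*Nfkbia*, *Tnfaip3*, *Ccl9* and *Lif*) and 4 the AP-1 element (*Tnfaip3*, *Ccl9*, *Lif* and *Sdcbp2*). Of 30 genes at least 2-fold lower, 22 were matched, and 3 held the κB consensus (*Ptx3*, *Cpne1* and *P4ha1*) and 2 the AP-1 element. Of 38 genes higher at 1.5 h in both RelA-bearing genotypes, 27 were matched, 16 with the κB consensus and 7 with the AP-1 element. Over all 27025 regions the shares were 8.18% for the κB consensus and 7.93% for the AP-1 element. The counts are small and were not tested against these shares. A match is a description of the sequence and not a measured binding site.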

How the data were processed

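Total RNA of MEFs was hybridised by the authors to Illumina mouse bead arrays, 12 in all, 1 for each genotype and time. The deposited values are intensities on a linear scale that the authors had background subtracted and scaled between arrays. The submitters' processing notes name GenomeStudio with no version, and how the arrays were scaled is not given in the sources used here. A further table with 12 columns of non-normalized signal was not used, because its column names match no label.

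GEO's platform annotation gave 23978 of 25697 probes exactly 1 gene symbol, and these were used. A floor of 16 was applied before taking log2; no gene followed in Sirt6-/-RelA-/- cells had a value under 16 on those arrays. Genes needed an intensity of at least 100, the detection value of the study's methods, and the brightest such probe stood for a gene. Single-time differences are between single arrays and were counted at 2-fold and 1.5-fold, with no test. Late and 1.5 h responses were tested by limma 3.58.1 in R 4.3.3 on all 12 arrays, with a term for each genotype at 0 h, 1.5 h and the late phase (9 terms, 3 residual degrees of freedom). Benjamini-Hochberg adjustment ran over all genes tested, with a threshold of 0.05. The p-values set each response against the spread between the 6 and 24 h arrays of a genotype, and nothing says that these came from separate cultures. The number of arrays limits the precision. Intervals are at 95%. Fits were tested on simulated data.

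The members and gene lists were chosen with earlier results of these data known. Named genes are *Rela* and *Sirt6*, the 10 largest differences each way at each time, the 10 largest each way past each test, up to 5 members of each list with the largest differences, NF-κB family and feedback genes, the 10 largest and 10 smallest differences in Sirt6-/-RelA-/- cells among the RelA-bearing genes at each time, and genes the study names. Others, among them the remaining 2-fold genes and those of the promoter search, were named after their values were seen. Start-site regions came from RefSeq (GRCm38.p6) and were used for sequence only, since the deposited values name no build. Alternatives covered the filter, the floor, an offset of 50, quantile normalization, median centring, the mean of probes, the variance prior, the fold, the reference and the arrays left out. Those leaving out single 6 or 24 h arrays from the difference tests, or such arrays of other genotypes from the late test, the shared difference of 24 and 6 h as a term and the filter on the Sirt6-/-RelA-/- arrays were added after seeing the data. Matplotlib 3.10.9 in Python 3.11.15 drew the figures.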

Additional observations from a re-analysis of the deposited data

Results flagged for a closer look

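The response to TNF-α differed between Sirt6-/-RelA-/- and RelA-bearing cells by the limma test of the difference itself for 7 genes at 6 and 24 h. On the log2 scale, as the response in Sirt6-/-RelA-/- cells minus the mean response of wild-type and Sirt6-/- cells, the late differences were -4.91 for *Ccl5*, -2.57 for *Cxcl1*, -2.11 for *Ccl2*, -1.83 for *Gsdmd*, -1.86 for *Slc2a6*, -2.05 for *Prnd* and -1.72 for *Sash1*. At 1.5 h 5 genes differed, by -3.16 for *Cxcl1*, -3.25 for *Ccl5*, -2.40 for *Ccl2*, -2.02 for *Irf1* and -1.60 for *Csf1*. Of these genes, *Ccl5*, *Cxcl1*, *Gsdmd*, *Prnd* and *Sash1* were under 100 on all Sirt6-/-RelA-/- arrays. Those genes entered the test only through arrays where they are high, which favours this direction. The values of *Prnd* and *Ccl5* depend on the floor and that of *Gsdmd* on the probe. Each condition at 0 and 1.5 h is 1 array, and the p-values rest on the spread between 6 and 24 h. In both RelA-bearing genotypes each of these genes was higher than at 0 h on every TNF-α array. They were called for a larger response in those genotypes, so this adds no support.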

How the results depend on the processing

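The counts moved with the intensity filter and the fold. Genes at least 2-fold different in Sirt6-/-RelA-/- cells, 4, 15 and 38 at 1.5, 6 and 24 h, became 21, 41 and 68 with a filter of 50, 2, 8 and 25 with one of 200, and 116, 156 and 177 with none. An offset of 50 gave 0, 6 and 17. At 1.5-fold there were 58, 116 and 322, and at 3-fold 0, 0 and 5. For the late response, 2 genes passed the limma test. The count was 0 with a filter of 50, 1 with one of 200, 209 with none, 1 with the offset, 0 with the mean of probes, 4 with a trended robust prior, 0 with 0 and 1.5 h as reference, 33 with the shared difference of 24 and 6 h as a term and 0 without any 1 of the 6 late arrays, where a lone late array is assumed to vary like the others. For the late difference, 7 genes became 13 with a filter of 200, 447 with none, 26 with the offset, 4 with the mean of probes, 38 with the trended prior, 201 against wild-type alone, 51 with the shared time term, 2 with the filter on the Sirt6-/-RelA-/- arrays and 2 without the wild-type 24 h array. For the 1.5 h difference, 5 became 1 with a filter of 50, 648 with none, 8 with the trended prior, 13 with the shared time term, 3 with the filter on the Sirt6-/-RelA-/- arrays and 1 without the wild-type 6 h or the wild-type 24 h array. The medians of the RelA-bearing genes in Sirt6-/-RelA-/- cells became 0.0711, 0.0298 and -0.0425 where genes were chosen in wild-type cells alone, the last a change of sign. The cause of these shifts was not tested. Quantile normalization and median centring moved the 24 h median of all genes from -0.05 to 0.01 and 0.02. *Ccl5* and *Cxcl1* passed the late difference under all 19 alternatives that tested them. Among these, the fit without the wild-type 0 h array and that against Sirt6-/- cells alone are the same comparison. Both genes were under 100 on all Sirt6-/-RelA-/- arrays, so the filter on those arrays left them out. They entered the test only through arrays where they are high, so these passes are not support for a smaller response. No paired analysis was possible because every condition is 1 array and the labels give no replicate numbers that differ, and the shared time term is the nearest matched fit.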
